A study of Mus musculus with 6 samples.

Results

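Glutathione transferases outside the mu class were followed in primary mouse hepatocytes with and without the succinate receptor gene *Sucnr1*. The set held 10 genes of the 25184 in the deposited count table, taken by name with earlier results of these data known. They were *Gsta1*, *Gsta2*, *Gsta3* and *Gsta4* of the alpha class, *Gstp1* of the pi class and *Gstt1* and *Gstt2* of the theta class. The others were *Gstz1* of the zeta class, *Gstk1* of the kappa class and the membrane-bound *Mgst1*. None of the 10 passed an FDR of 0.05 between genotypes, and neither did the deleted gene *Sucnr1* in the same test. *Gstp1* and *Mgst1* were by far the most abundant. A single knockout library held the highest or lowest value of 8 of the 10 genes, against 37.7% of all genes tested. It was singled out after its values were seen. The counts of *Gsta1* and its copies *Gm3776* and *Gm10639* rose and fell together across libraries, in an order that followed neither genotype nor extraction day. The split of reads between *Gsta1* and its closest copy, *Gm3776*, is uncertain.

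The control mice, *Sucnr1* fl/fl, carried floxed *Sucnr1* alleles and no Cre, and the Hep-*Sucnr1* KO mice carried the same floxed alleles and *Alb-Cre*+/−, a Cre recombinase driven by the albumin promoter, on a C57BL6J background. All mice were fed chow, and their hepatocytes were isolated by enzymatic digestion and a density gradient and kept overnight on collagen before RNA extraction. The ages are not given for these mice in the sources used here. There were 3 libraries of each genotype, of which 1 of each was extracted on day 1 (*Sucnr1* fl/fl replicate 1 and KO replicate 3) and 2 of each on day 2 (*Sucnr1* fl/fl replicates 2 and 3, KO replicates 4 and 5).

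Each library held between 30504248 and 38770694 counts. *Sucnr1* itself, counted over the whole gene although Cre removes 1 exon, stood at 6.71, 3.55 and 3.40 CPM (counts scaled by library size) in *Sucnr1* fl/fl replicates 1, 2 and 3 and at 2.66, 0.827 and 0.152 CPM in KO replicates 3, 4 and 5. The 3 KO libraries lay below the 3 control libraries. KO replicate 3 stood close to the day 2 controls, but its log2 ratio to its same-day control, *Sucnr1* fl/fl replicate 1, was −1.34. Between genotypes the log2 fold change of *Sucnr1* was −2.23 (SE 0.54), with an unadjusted p of 0.0044 and an adjusted p of 0.998 in edgeR. The test thus did not call the deleted gene itself. The 8 hepatocyte markers summed to 74104 to 97317 CPM in the *Sucnr1* fl/fl and 67288 to 100346 CPM in the KO libraries. The 7 Kupffer cell markers summed to 24.0 to 86.9 CPM and 4.49 to 75.4 CPM, with the lowest value in KO replicate 3, and the 7 sinusoidal endothelial markers to 33.8 to 62.2 CPM and 25.8 to 40.3 CPM. The 7 stellate cell markers summed to 4.71 to 21.04 CPM and 3.43 to 7.86 CPM, the 5 neutrophil markers to 0.286 to 2.74 CPM and 0.665 to 2.49 CPM, and the 5 erythroid markers to 73.6 to 115 CPM and 86.8 to 115 CPM, mostly *Alas2*. The 6 cholangiocyte markers summed to 350 to 512 CPM and 426 to 650 CPM through *Spp1* and *Sox9*, while *Krt19* stayed below 1 CPM in all 6 libraries. Their part in the results below was not tested, and in bulk libraries fewer cells of a type and less RNA per cell cannot be told apart.

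Glutathione transferases join the thiol of glutathione to electrophiles, which makes drugs, carcinogens and products of lipid oxidation more soluble and ready for export from the cell. The liver is the main site of this reaction, where the alpha, mu and pi classes are abundant cytosolic dimers and *Mgst1* sits in the membranes of the endoplasmic reticulum and mitochondria. Several of these genes are known targets of the transcription factor NRF2, and others are induced through the receptors CAR and PXR.

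Of the alpha class genes, *Gsta1*, *Gsta2* and *Gsta4* lie on chromosome 9 and *Gsta3* lies on chromosome 1 (GRCm38, as all coordinates here). *Gsta1*, at chr9:78230656-78242684 on the plus strand, is followed on the same strand by *Gm3776* (chr9:78257129-78269166) and *Gm10639* (chr9:78289923-78305525), and then on the minus strand by *Gsta2* (chr9:78331018-78355788). The coding sequence of *Gsta1* differed from that of *Gm3776* at 2 of 672 bases. Its identity was 97.91% with *Gsta2*, 97.31% with *Gm10639*, 74.74% with *Gsta3* and 66.47% with *Gsta4*. Of all windows of 100 bases in the longest coding transcript of *Gsta1*, 81.83% occurred unchanged in another gene, against 35.02% for *Gsta2* and 0% for *Gsta3* and *Gsta4*. The stretches below, coding bases 469 to 528 of each gene, show why reads of *Gsta1* and *Gm3776* cannot be told apart there while those of *Gsta2* can. Capitals mark positions at which the 4 genes differ.
Gsta1: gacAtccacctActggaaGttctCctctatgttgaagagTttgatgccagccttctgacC
Gm3776: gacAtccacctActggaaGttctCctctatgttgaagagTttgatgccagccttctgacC
Gm10639: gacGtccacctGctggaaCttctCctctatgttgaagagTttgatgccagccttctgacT
Gsta2: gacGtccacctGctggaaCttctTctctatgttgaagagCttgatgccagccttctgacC

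*Gsta1*, whose product conjugates a wide range of electrophiles and also acts as a glutathione peroxidase on lipid hydroperoxides, stood at 90.1, 174 and 113 CPM in *Sucnr1* fl/fl replicates 1, 2 and 3 and at 159, 66.1 and 89.5 CPM in KO replicates 3, 4 and 5. *Sucnr1* fl/fl replicate 2 and KO replicate 3 were high and KO replicate 4 was low, and the groups overlapped. The mean was 126 ± 43.3 CPM in controls and 105 ± 48.2 CPM in KO (SD, n = 3 each), a log2 fold change of −0.33 (SE 0.37, 95% interval −1.22 to 0.56) that did not pass the test (adjusted p = 0.998, edgeR quasi-likelihood). This value rested on single libraries. It was 0.02 without *Sucnr1* fl/fl replicate 2 and −0.02 without KO replicate 4. Without either day 1 library the genotype difference comes from day 2 alone. It was then −0.88 without *Sucnr1* fl/fl replicate 1 and −0.90 without KO replicate 3.

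Of the 10 genes, 2 had all KO libraries on opposite sides of their same-day controls on the 2 days, *Gsta1* and *Gstt1*, against 12.6% of all 15105 genes tested. For *Gsta1*, within day 1, KO replicate 3 was above its control by 0.82 on the log2 scale, and within day 2 both KO libraries lay below both controls, with a log2 ratio of means of −0.88. The test of this difference between days, the interaction of genotype and day, gave −1.70 (SE 0.45) with an unadjusted p of 0.010 in edgeR and an adjusted p of 1.00. At an unadjusted p below 0.05 the interaction took 1 of the 10 genes, *Gsta1*, and 3.69% of all genes tested.

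*Gm3776* and *Gm10639* moved with *Gsta1*. *Gm3776* had 94.4 to 98.9% of the counts of *Gsta1* in every library and *Gm10639* had 20.1 to 22.6%, although the level of *Gsta1* differed by 2.63 times between its highest and lowest library. *Gsta2*, by contrast, had 20.2 to 48.8% of the counts of *Gsta1*. How read pairs matching several genes were counted is not given in the sources used here, so the split of the counts between *Gsta1* and *Gm3776* is uncertain. For these genes, shared reads and a shared change in level cannot be told apart. A pair that matches several genes may also enter the sums below more than once. Summed over *Gsta1*, *Gm3776* and *Gm10639*, the genotype difference was −0.32 on the log2 scale (SE 0.37, adjusted p = 0.998), and with *Gsta2* in the sum it was −0.35 (SE 0.34, adjusted p = 0.998, both edgeR).

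**Figure D1:**
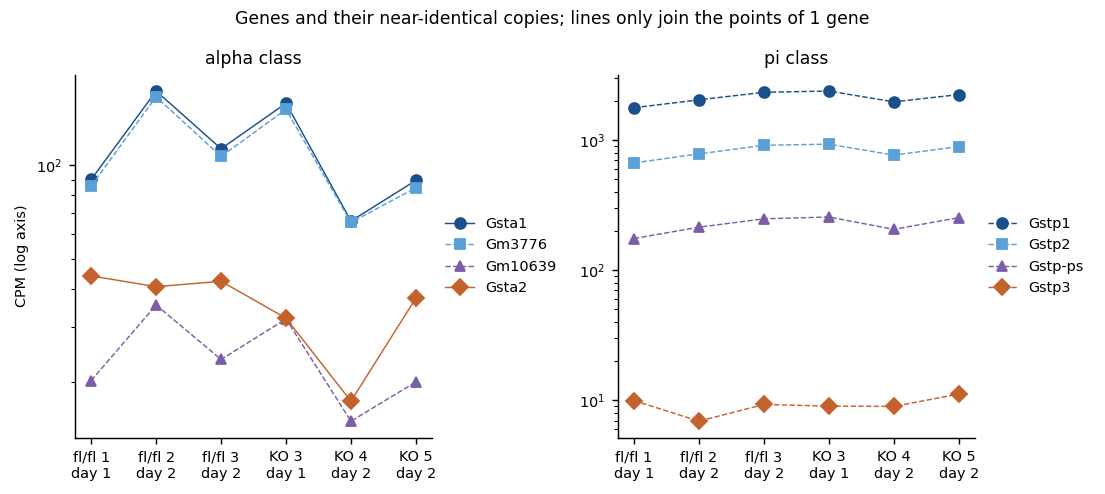
Levels in CPM on a log axis (vertical) in the 6 libraries (horizontal) of the alpha class genes *Gsta1*, *Gm3776*, *Gm10639* and *Gsta2* (left) and the pi class genes *Gstp1*, *Gstp2*, *Gstp-ps* and *Gstp3* (right). *Gsta1*, *Gm3776* and *Gm10639* run in parallel with peaks in fl/fl 2 and KO 3, while *Gsta2* is flat in the controls and lowest in KO 4.

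The same copies resemble each other before their RefSeq starts. Over the 250 bases before the RefSeq start (GRCm38.p6), *Gsta1* was 99.58% identical with *Gm3776*, 97.87% with *Gm10639* and 76.99% with *Gsta2* over the aligned bases. The stretches below, of 80 bases each, are shown beside the counts, in which the first 3 genes moved together and *Gsta2* did not. A link between these sequences and the counts was not tested. The stretches lie at chr9:78230555-78230634 (plus strand), chr9:78257028-78257107 (plus), chr9:78289829-78289908 (plus) and chr9:78347183-78347262 (minus). The stretch of *Gsta2* falls within the span of the gene given above, which comes from GENCODE and not from RefSeq. Capitals mark differences from *Gsta1*.
Gsta1: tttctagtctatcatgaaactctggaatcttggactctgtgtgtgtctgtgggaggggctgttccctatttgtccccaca
Gm3776: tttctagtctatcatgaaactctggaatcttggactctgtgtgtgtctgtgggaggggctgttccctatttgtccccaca
Gm10639: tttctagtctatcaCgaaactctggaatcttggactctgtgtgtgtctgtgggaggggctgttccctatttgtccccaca
Gsta2: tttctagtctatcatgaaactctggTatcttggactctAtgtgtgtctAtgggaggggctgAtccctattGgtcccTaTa

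*Gsta2*, a close relative of *Gsta1* that the study counts among its periportal genes, stood at 44.0, 40.6 and 42.2 CPM in *Sucnr1* fl/fl replicates 1, 2 and 3 and at 32.1, 17.3 and 37.3 CPM in KO replicates 3, 4 and 5. All KO libraries lay below all controls, and KO replicate 4 was the lowest. It was the only one of the 10 genes whose groups did not overlap, against 10.6% of all genes tested, a share of the same size. The mean was 42.3 ± 1.69 CPM in the controls and 28.9 ± 10.4 CPM in KO (SD, n = 3 each), the largest genotype difference among the 10 genes in either direction. The log2 fold change of −0.55 (SE 0.26, 95% interval −1.17 to 0.07) did not pass the test, with an unadjusted p of 0.073 and an adjusted p of 0.998 in edgeR, and the exact two-sided permutation test gave p = 0.1, the smallest that 3 against 3 libraries allow. The difference was −0.28 without KO replicate 4 and −0.90 without KO replicate 5. In DESeq2 its unadjusted p was 0.044 and its adjusted p 1.00.

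*Gsta3*, whose product handles aflatoxin epoxide in the mouse liver and which belongs to the pericentral set of the study, stood at 470, 515 and 583 CPM in *Sucnr1* fl/fl replicates 1, 2 and 3 and at 633, 919 and 520 CPM in KO replicates 3, 4 and 5. KO replicate 4 was well above the other 5 libraries, and the groups overlapped because KO replicate 5 fell within the control range. Between genotypes the gene differed by 0.40 on the log2 scale (SE 0.22, 95% interval −0.12 to 0.93, adjusted p = 0.998 in edgeR). Without KO replicate 4 it was 0.14, and without KO replicate 5 it was 0.61 with an adjusted p of 0.733.

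*Gsta4*, at chr9:78182774-78209349, encodes the alpha class enzyme with a preference for 4-hydroxynonenal and other lipid aldehydes. It stood at 55.4, 47.2 and 62.5 CPM in *Sucnr1* fl/fl replicates 1, 2 and 3 and at 50.5, 37.4 and 64.2 CPM in KO replicates 3, 4 and 5. The KO libraries held both the highest and the lowest value, so the control range lay inside theirs. Its genotype difference of −0.12 on the log2 scale (SE 0.21) changed sign to 0.08 without KO replicate 4.

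**Figure D2:**
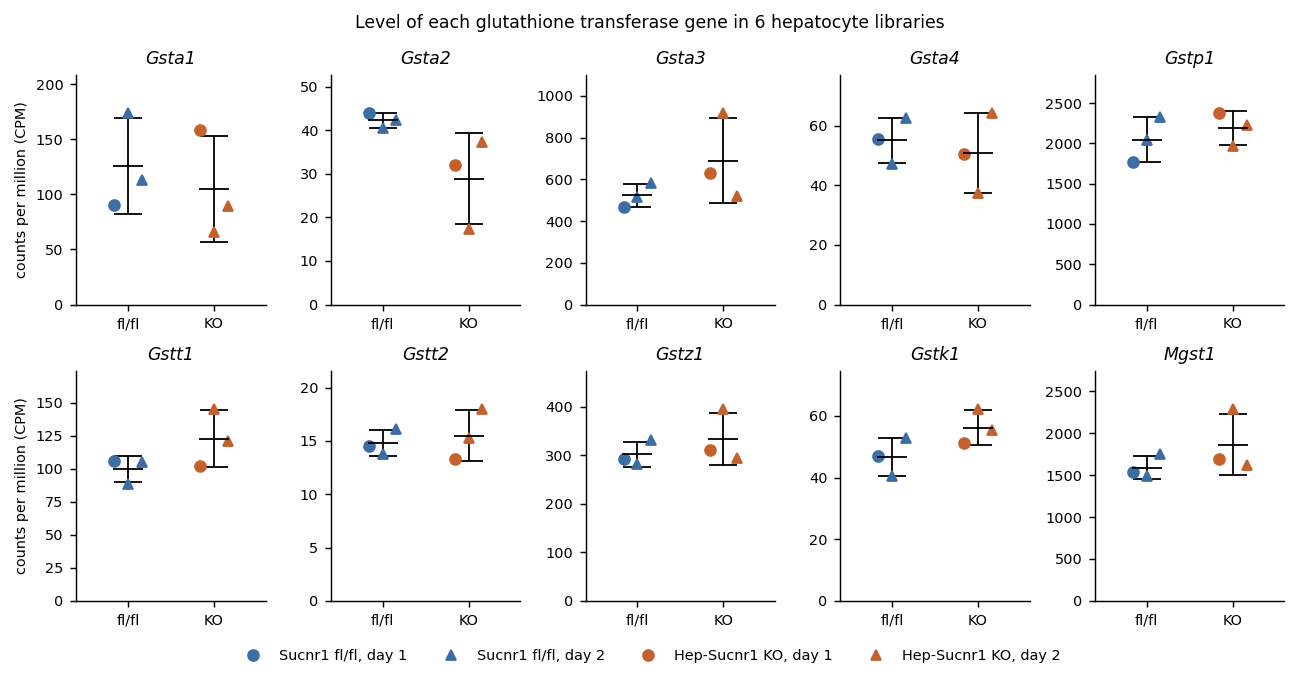
CPM (vertical, from 0) of the 10 genes by genotype (horizontal), with fl/fl for the controls. Points are libraries, circles extracted on day 1 and triangles on day 2, and bars are the mean ± SD of 3 libraries. Only for *Gsta2* do all KO points lie below all control points, and a day 2 KO library stands apart upward for *Gsta3* and *Mgst1*.

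*Gstp1*, the pi class enzyme that conjugates many small electrophiles, lies at chr19:4035407-4037985 on the minus strand, beside *Gstp2* (chr19:4040285-4046023) and *Gstp3* (chr19:4057477-4059569). *Gstp-ps*, a processed pseudogene on chromosome 1, carries a copy of the same sequence. Of the 100-base windows of *Gstp1*, 52.77% were shared with another gene, and its coding sequence was 98.1% identical with *Gstp2*, 97.62% with *Gstp-ps* and 72.47% with *Gstp3*. The stretches below, coding bases 3 to 62 of *Gstp1* and *Gstp2* and the matching bases of the pseudogene, show a part that does separate the genes. Capitals mark positions at which they differ.
Gstp1: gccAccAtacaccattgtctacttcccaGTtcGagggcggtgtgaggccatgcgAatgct
Gstp2: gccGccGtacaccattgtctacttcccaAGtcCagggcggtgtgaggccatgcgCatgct
Gstp-ps: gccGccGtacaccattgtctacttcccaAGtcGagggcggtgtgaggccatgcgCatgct

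*Gstp1* stood at 1771, 2037 and 2328 CPM in *Sucnr1* fl/fl replicates 1, 2 and 3 and at 2379, 1964 and 2235 CPM in KO replicates 3, 4 and 5. It varied little, by 1.34 times between the lowest and the highest library, and the groups overlapped. Its log2 fold change was 0.10 (SE 0.17, 95% interval −0.31 to 0.52, adjusted p = 0.998 in edgeR). It was −0.06 on day 2 alone, the value also reached without either day 1 library, and −0.09 with the index series of the libraries, read from their library names, as a further term.

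*Gstp2* held 37.7 to 39.8% and *Gstp-ps* 9.89 to 11.3% of the counts of *Gstp1* in each library, whereas the more distant *Gstp3* held 0.340 to 0.563%. *Gstp2* and *Gstp-ps* thus kept a nearly fixed ratio to *Gstp1*, and the split of the counts among these 3 genes is uncertain. The sum of *Gstp1*, *Gstp2* and *Gstp3* differed between genotypes by 0.11 on the log2 scale (SE 0.18), and that of *Gstp1*, *Gstp2* and *Gstp-ps* by 0.12 (SE 0.18), both with an adjusted p of 0.998 in edgeR.

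*Gstt1* and *Gstt2*, theta class enzymes that act on small halogenated compounds and on sulfate esters, are neighbors on chromosome 10 (chr10:75783813-75798584 and chr10:75831114-75837424, both on the minus strand). *Gstt1* stood at 106, 88.3 and 105 CPM in *Sucnr1* fl/fl replicates 1, 2 and 3 and at 102, 145 and 121 CPM in KO replicates 3, 4 and 5. Both day 2 KO libraries were above all controls, whereas the day 1 KO library was within the control range. The log2 fold change was 0.29 (SE 0.16, 95% interval −0.08 to 0.66, adjusted p = 0.998 in edgeR), with log2 ratios of −0.05 within day 1 and 0.46 within day 2. The interaction with day was 0.51 (SE 0.30, adjusted p = 1.00), and on day 2 alone the unadjusted p of the genotype difference was 0.037 and its adjusted p 0.999.

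*Gstt2* was far lower, at 14.6, 13.7 and 16.1 CPM in *Sucnr1* fl/fl replicates 1, 2 and 3 and at 13.3, 15.3 and 18.0 CPM in KO replicates 3, 4 and 5. The lowest and highest library were both KO. The log2 fold change of 0.06 (SE 0.14, 95% interval −0.27 to 0.39) turned to −0.030 without *Sucnr1* fl/fl replicate 2 and to −0.037 without KO replicate 5. *Gstt3*, which shares 74.03% of aligned coding bases with *Gstt1* but no 100-base window, stood at 6.41 to 10.9 CPM, and the sum of *Gstt1* and *Gstt3* changed by 0.29 (SE 0.16, adjusted p = 0.998).

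*Gstz1*, at chr12:87147165-87164723, encodes maleylacetoacetate isomerase, the step before the last in the breakdown of tyrosine. It stood at 292, 283 and 331 CPM in *Sucnr1* fl/fl replicates 1, 2 and 3 and at 311, 395 and 294 CPM in KO replicates 3, 4 and 5. KO replicate 4 was the highest, and the other 2 KO libraries lay within the control range. Its genotype difference was 0.14 on the log2 scale (SE 0.16, 95% interval −0.23 to 0.51) and was 0.00 without KO replicate 4.

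Around *Gstz1* in the same pathway, 4 of 6 genes had a log2 fold change above 0 and 2 below, with a median of 0.08, and none had an unadjusted p below 0.05. The 2 genes with the largest differences were *Fah*, the enzyme of the last step, at 0.18 (SE 0.12) and *Hgd*, the dioxygenase of homogentisate, at 0.17 (SE 0.13).

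*Gstk1*, at chr6:42245935-42250447, encodes the kappa class enzyme of mitochondria and peroxisomes. It stood at 47.0, 40.4 and 52.8 CPM in *Sucnr1* fl/fl replicates 1, 2 and 3 and at 51.1, 62.2 and 55.3 CPM in KO replicates 3, 4 and 5. The groups overlapped only through KO replicate 3, which was below *Sucnr1* fl/fl replicate 3. The log2 fold change of 0.26 (SE 0.14, 95% interval −0.06 to 0.59) had an unadjusted p of 0.096 and an adjusted p of 0.998 in edgeR, and fell to 0.14 at the lowest when 1 library was left out. Of 5 tested genes of its peroxisomal and mitochondrial surroundings 3 were above 0 and 2 below, with a median of 0.01. The largest difference there was 0.08 (SE 0.12) for *Hspd1*, a mitochondrial chaperonin.

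*Mgst1*, at chr6:138140316-138156755, encodes the microsomal enzyme that conjugates electrophiles and reduces lipid hydroperoxides within membranes. It stood at 1535, 1485 and 1748 CPM in *Sucnr1* fl/fl replicates 1, 2 and 3 and at 1687, 2283 and 1616 CPM in KO replicates 3, 4 and 5. KO replicate 4 was again the highest, and the other 2 KO libraries lay within the control range. It differed between genotypes by 0.23 on the log2 scale (SE 0.18, 95% interval −0.21 to 0.66, adjusted p = 0.998 in edgeR) and was 0.06 without KO replicate 4.

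**Figure D3:**
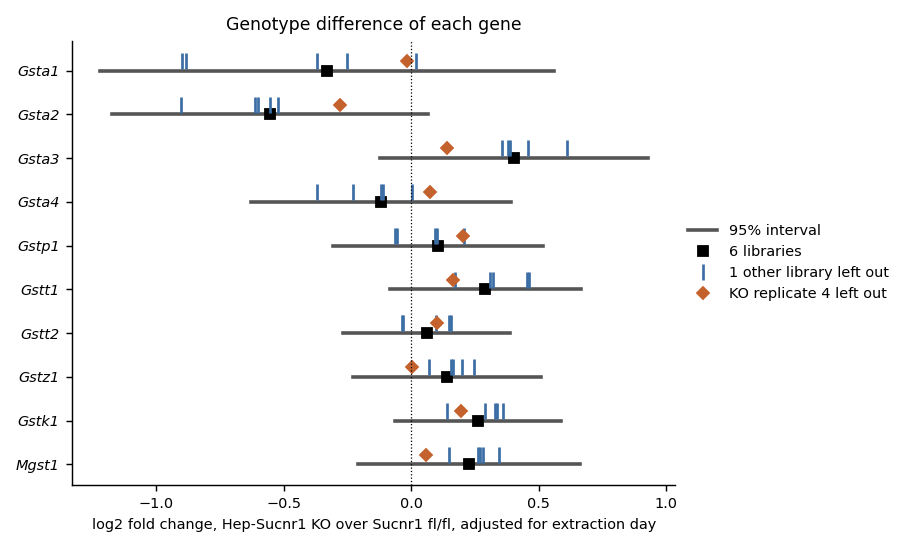
Log2 fold change of each gene, Hep-*Sucnr1* KO over *Sucnr1* fl/fl, from the fit with extraction day (horizontal), with genes on the vertical axis. Squares and lines give the value and 95% interval from 6 libraries, and the marks above give the value with 1 library left out, with diamonds for KO replicate 4. Every interval spans 0, and without KO replicate 4 the values of *Gsta3* and *Mgst1* are 0.14 and 0.06.

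Across the 10 genes, 7 had a log2 fold change above 0 and 3 below. The median was 0.12, beside 0.00 over all 15105 genes tested. At an FDR of 0.05 edgeR called 0 of the 10 genes and 0 of 15105 genes (0%), and at an unadjusted p below 0.05 it took 0 of the 10 genes against 3.73% of all genes. DESeq2 called 7 genes (0.0463%), none of them among the 10, and 1 of the 10, *Gsta2*, had an unadjusted p below 0.05, against 2.88% of all genes in that test. The standard errors of the 10 genes ran from 0.14 to 0.37 on the log2 scale. With the index series of the libraries as a further term, which partly follows genotype, the median of the 10 genes was 0.01.

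KO replicate 4 held the highest value of 5 of the 10 genes (*Gsta3*, *Gstt1*, *Gstz1*, *Gstk1* and *Mgst1*) and the lowest of 3 (*Gsta1*, *Gsta2* and *Gsta4*). Over all genes tested, 19.3% were highest and 18.4% lowest in that library, together 37.7%. This library was singled out after its values were seen, and the count is a description. The pericentral landmark genes, which mark hepatocytes next to the central vein, were also highest there in 8 of 10 cases, and their median deviation from the 6-library mean was 1.18 on the log2 scale against −0.87 to 0.19 in the other libraries. *Glul*, the glutamine synthetase of pericentral hepatocytes, stood at 1002 CPM in KO replicate 4 against 398 to 646 CPM elsewhere, and was chosen after its values were seen. The periportal landmark genes were lowest there in 6 of 10 cases, with a median deviation of −0.57. The part of this in the levels of the 10 genes was not tested. Without KO replicate 4 the genotype differences of the genes for which this value is not given above were 0.17 for *Gstt1*, 0.20 for *Gstp1*, 0.19 for *Gstk1* and 0.10 for *Gstt2* on the log2 scale, and the median of the 10 genes was 0.09.

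**Figure D4:**
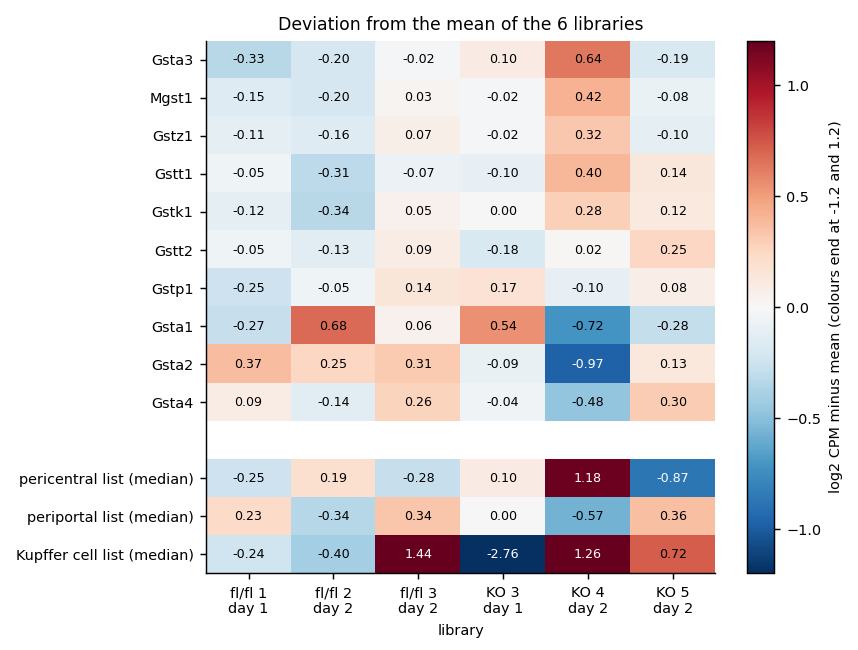
Log2 CPM minus its 6-library mean (color and printed value, colors ending at −1.2 and 1.2) for the 10 genes and, below the gap, the median deviation of 3 marker lists (vertical), by library (horizontal). KO 4 is red for *Gsta3*, *Mgst1*, *Gstz1*, *Gstt1*, *Gstk1* and the pericentral list and blue for *Gsta1*, *Gsta2*, *Gsta4* and the periportal list, and the Kupffer cell list is lowest in KO 3.

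The level of *Gsta1* across libraries had a different order, with *Sucnr1* fl/fl replicate 2 and KO replicate 3 on top. The 12 listed NRF2 targets outside this gene family had their highest median deviations in the same libraries, 0.21 and 0.16, against −0.16 to −0.05 in the other 4. *Srxn1*, the sulfiredoxin gene, was at 1449 and 1388 CPM there and at 828 to 916 CPM in the other 4 libraries, and *Nqo1*, another NRF2 target, was at 5.11 and 5.95 CPM there and at 3.84 to 4.98 CPM elsewhere. Others of the 12 had another order. *Hmox1* was highest in KO replicate 3 at 2981 CPM but lowest in *Sucnr1* fl/fl replicate 2 at 2218 CPM. *Aox1* was lowest in KO replicate 3 at 47.7 CPM, and *Osgin1* was highest in KO replicate 4 at 944 CPM. All 4 of these targets were chosen after their values were seen, and the part of the list in the level of *Gsta1* was not tested.

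The letters TGACNNNGC, the core of the antioxidant response element bound by NRF2, were searched on both strands in the 250 bases before the RefSeq start. They occurred once in *Gsta3* (TGACATTGC, 121 bases before the start on the same strand, position −121) and once in *Mgst1* (TGACCGTGC, position −56, opposite strand, in 1 of its 2 entries), thus in 2 of the 8 genes with an entry. Counted per promoter entry and not per gene, they occurred in 10.2% of the 32851 promoters of the table. No such letters were found in this window of *Gsta1*, *Gsta2*, *Gstp1*, *Gstt1*, *Gstz1* or *Gstk1*.

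Per length of the gene, the order of the levels was steep. In CPM per kilobase of exon over the 6 libraries, *Gstp1* reached 1369 ± 152 (SD) and *Mgst1* 857 ± 144, and their ranges, 1144 to 1537 and 738 to 1134, did not overlap. *Gsta3* followed at 140 ± 37.6 and *Gsta1* at 121 ± 44.5. These neighbors overlapped in range, and so did *Gsta1* with *Gstt1* (72.7 ± 12.8) and *Gstt1* with *Gstz1* (62.4 ± 8.14). Below them came *Gsta4* at 41.8 ± 7.94, *Gstk1* at 35.0 ± 5.04 and *Gsta2* at 30.2 ± 8.40, again overlapping from one to the next, and *Gstt2* was last at 3.65 ± 0.411. With the longest coding transcript as the length in place of all exons, *Gstz1* moved from place 6 to place 4 and *Gsta1*, *Gstt1*, *Gsta4* and *Gstk1* also changed places, while the first 3 and the last 2 kept theirs. *Gsta3* then stood at 416 ± 112 and *Gsta1* at 132 ± 48.7 CPM per kilobase, and their ranges, 322 to 630 and 75.6 to 199, did not overlap, so the overlap of these genes depends on the length used. The exons of *Gsta3* sum to 4344 bases against 1457 in its longest coding transcript. The levels of *Gsta1* and *Gstp1* rest on counts whose split with their copies is uncertain, which also limits their places in this order.

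**Figure D5:**
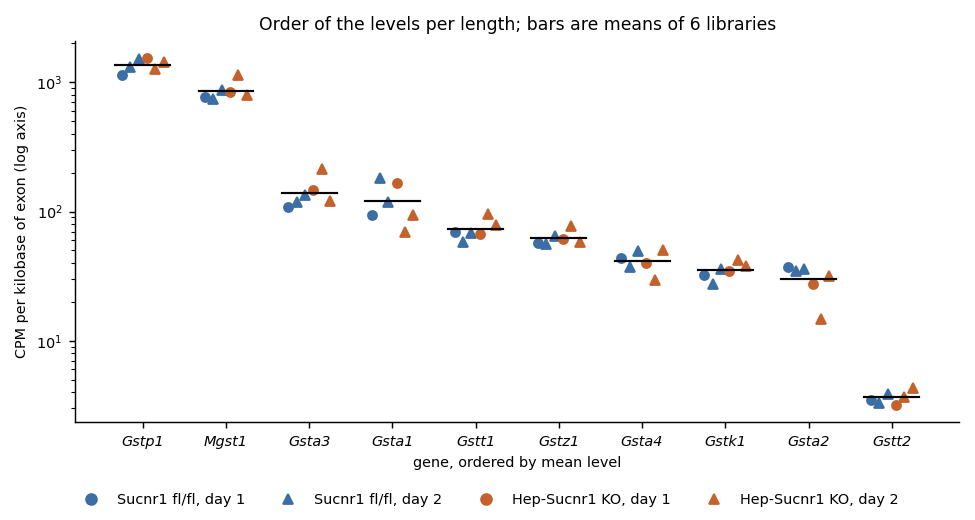
CPM per kilobase of exon (vertical, log axis) for the 10 genes in order of their mean (horizontal). Points are the 6 libraries, colored by genotype and shaped by extraction day, and bars are means. *Gstp1* and *Mgst1* stand above the rest and *Gstt2* below.

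The genes most like the 2 most abundant ones were found by the Pearson correlation of log2 CPM over the 6 libraries, among 7066 genes with a mean of at least 10 CPM. For *Gstp1* these were *Gstp2* (r = 0.996), *Gstp-ps* (r = 0.983) and *Pex2* (r = 0.977), of which the first 2 share its sequence. For *Mgst1* they were *Aup1* (r = 0.998), *Isoc2a* (r = 0.997) and *Abcg2* (r = 0.995). These are descriptions over 6 libraries that share their depth and cell makeup, and 15 genes for *Gstp1* and 35 for *Mgst1* had an r above 0.95.

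Between extraction days, with genotype in the model, 7 of the 10 genes were higher on day 2 and the median log2 difference, day 2 over day 1, was 0.10, beside 0.02 over all genes. None of the 10 genes had an unadjusted p below 0.05, against 7.49% of all genes tested, and edgeR called 0 genes at an FDR of 0.05 (0%). The differences lay between −0.26 (*Gsta1*, SE 0.39) and 0.21 (*Gsta3*, SE 0.24). DESeq2 called 220 genes between days (1.46%), and none of the 10 genes was among them.

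In the mu class, another family of cytosolic glutathione transferases abundant in the liver, all 7 genes had a genotype log2 fold change above 0, with a median of 0.24, and 3 had an unadjusted p below 0.05, *Gstm2* at 0.82 (SE 0.33), *Gstm3* at 0.70 (SE 0.11) and *Gstm4* at 0.33 (SE 0.11). None passed an adjusted p of 0.05 in edgeR (0.998 each). A difference between the mu class and the 10 genes was not tested. Of 12 tested genes among the other glutathione transferases and copies, 6 were above 0 and 6 below, with a median of 0.05, led by *Gm3776* at −0.32 (SE 0.37) and *Gstt3* at 0.31 (SE 0.18).

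The genes that make and recycle glutathione did not pass the test in either direction. Of 11 genes of synthesis and recycling, 7 were above 0 and 4 below, with a median of 0.01, led by *Ggct*, which splits gamma-glutamyl amino acids, at 0.28 (SE 0.16) and *Gclc*, the catalytic subunit of the rate-limiting ligase, at −0.21 (SE 0.22). Of 9 genes of cysteine supply, 7 were above 0 and 2 below, with a median of 0.11, led by the amino acid transporters *Slc1a5* at 0.68 (SE 0.33) and *Slc1a4* at 0.53 (SE 0.38), of which *Slc1a5* was near 1 CPM. Of 5 tested glutathione peroxidases and peroxiredoxins all were above 0, with a median of 0.16, led by *Prdx6* at 0.21 (SE 0.14) and *Gpx7* at 0.19 (SE 0.36). *Gpx7* was low, at 0.208 to 0.532 CPM. None of the genes of these 3 lists had an unadjusted p below 0.05.

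Downstream, where conjugates are exported and trimmed to mercapturates, 6 of 11 tested genes were above 0 and 5 below, with a median of 0.01. The largest differences were −0.48 (SE 0.34) for *Abcc4*, an efflux pump, and 0.38 (SE 0.26) for *Nat8*, an N-acetyltransferase. *Abcc4* was low, at 0.728 to 2.08 CPM. Of 14 regulators, 5 were above 0 and 9 below, with a median of −0.03, led by *Bach1*, a repressor of NRF2 targets, at −0.30 (SE 0.15). *Nfe2l2*, the gene of NRF2, was level at 168 to 185 CPM and was chosen after its values were seen.

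Several glutathione transferases differ between the sexes in the mouse liver, and sex-biased genes were therefore listed too. The Y-linked genes summed to 96.0 to 115 CPM in the 6 libraries, and the female-biased list to 3.19 to 6.58 CPM. Of 10 male-biased genes 6 were above 0 and 4 below between genotypes, with a median of 0.14, led by *Elovl3* at 0.66 (SE 0.37) and *Selenbp2* at 0.38 (SE 0.29), and 7 of them were highest in KO replicate 4. Only 2 female-biased genes passed the filter, *Cyp3a44* at 0.21 (SE 0.56) and *Cyp17a1* at −0.12 (SE 0.20). *Cyp3a44* was low, at 0.165 to 0.571 CPM.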

How the data were processed

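RNA of 6 primary mouse hepatocyte libraries was sequenced as stranded, paired-end mRNA. The authors trimmed reads with Trim Galore 0.6.7, aligned them with STAR 2.7.10a to GRCm38 and assigned read pairs to Ensembl genes by strand with featureCounts, and the deposited values are raw counts of 25184 genes. How ambiguous or repeated matches were counted is not given in the sources used here.

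CPM were derived from these counts with TMM factors. The 15105 genes whose mean DESeq2-normalized count exceeded 5, all 10 members among them, entered the quasi-likelihood test of edgeR 4.0.16 (R 4.3.3). Genotype and extraction day were the terms of the model, p values were adjusted by Benjamini-Hochberg over all tested genes, and the threshold was 0.05. All fold changes are of Hep-*Sucnr1* KO over *Sucnr1* fl/fl on the log2 scale unless a day difference is named. Single genes were also compared with the two-sided exact permutation test, whose smallest p is 0.1. Deviations and correlations used log2 CPM with a prior count of 2. The common biological coefficient of variation was 0.206, and at 30504248 to 38770694 counts a library the least counted member, *Gstt2*, had 420 counts or more, so the spread between libraries set the precision. The labels number the libraries within a genotype and name no animals, so p-values measure the spread between these libraries. No pair of libraries of the same genotype held identical values, and such pairs differed beyond counting noise (chi-square per degree of freedom of 45.6 or more).

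Coordinates and exon lengths came from GENCODE M21 (GRCm38), promoters from RefSeq (GRCm38.p6, 8 of the 10 members matched), and shared windows and identities were computed with Python 3.11.15, pandas 2.3.3 and Biopython 1.88 from the annotated transcripts. Named were the 10 members, in each pathway or sex list the 2 genes with the largest genotype difference and any past the threshold, and for the 2 most abundant members the 3 most correlated genes. In 2 of the lists 1 of these genes is not reported here. Any other gene named, apart from *Sucnr1*, marker genes and near copies of members, was chosen after its values were seen, which is said beside it. The members, lists and tests were chosen with earlier results of these data known. Alternatives were DESeq2 1.42.0, its size factors or library size alone, no filter or edgeR's own filter, a robust fit, summed paralogs, no covariate, the index series as a term, day 2 alone, an FDR of 0.1 and each library left out. The tests were checked on simulated counts. Raw reads were not analysed here.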

Additional observations from a re-analysis of the deposited data

Results flagged for a closer look

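For 2 of the 10 genes every KO library lay on one side of its same-day controls on day 1 and on the other side on day 2, a pattern that 12.6% of all 15105 genes tested shared. For *Gsta1* the genotype difference on day 2 minus that on day 1 was −1.70 on the log2 scale, with an unadjusted p of 0.010 and an adjusted p of 1.00 for the interaction in edgeR. For *Gstt1* it was 0.51, with an unadjusted p of 0.141 and an adjusted p of 1.00. Day 1 had 1 library of each genotype, so neither difference has a replicate check on that day.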

How the results depend on the processing

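The count of genes called between genotypes was 0 except with DESeq2 (7), and none of the 10 genes was called under any of the alternatives run. The number of the 10 genes with an unadjusted p below 0.05 was 0 in the fit as described, 1 with DESeq2 and 1 without a filter (*Gsta2* in both), 2 on day 2 alone (*Gsta1* and *Gstt1*), and 0 to 2 with 1 library left out. Over all genes the shares in the same fits were 3.73%, 2.88%, 3.01%, 2.06% and 2.06 to 5.49%. The median over the 10 genes was 0.010 with the index series as a term and ran from 0.08 to 0.20 with 1 library left out. Of 156 single genotype values under 16 alternatives, 10 changed sign, in 4 genes, and the adjusted p lay between 0.666 and 1.00. *Gstp1* was −0.093 with the index series and −0.064 on day 2 alone, and ran from −0.064 to 0.21 with 1 library left out, with −0.056 without *Sucnr1* fl/fl replicate 1. *Gstt2* was −0.0093 with the index series and ran from −0.037 to 0.16 with 1 library left out, with −0.030 without *Sucnr1* fl/fl replicate 2. *Gsta1* ran from −0.90 to 0.017. *Gsta4* ran from −0.37 to 0.075, with 0.0027 without *Sucnr1* fl/fl replicate 3. The sum of *Gsta1*, *Gsta2*, *Gm3776* and *Gm10639* ran from −0.84 to −0.048, that of *Gstp1*, *Gstp2* and *Gstp3* from −0.056 to 0.22, that of *Gstt1* and *Gstt3* from 0.17 to 0.46, that of *Gsta1*, *Gm3776* and *Gm10639* from −0.88 to 0.026 and that of *Gstp1*, *Gstp2* and *Gstp-ps* from −0.055 to 0.22. The causes were not tested.

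Between days, 220 genes were called with DESeq2, 122 without a filter and 29 without *Sucnr1* fl/fl replicate 2, against 0 in the fit as described. Of 136 single day values, 11 changed sign, all with 1 library left out. Their ranges were −1.03 to 0.64 for *Gsta1*, −0.43 to 0.041 for *Gsta2*, −0.19 to 0.14 for *Gsta4*, −0.18 to 0.26 for *Gstp1*, −0.17 to 0.38 for *Gstt1*, −0.0038 to 0.32 for *Gstt2* and −0.052 to 0.20 for *Gstk1*. No paired analysis was possible, because the labels name no animals or pairs and number the libraries within a genotype. Extraction day, which both genotypes share, was a term of the fit as described. With 3 libraries a genotype, depth did not limit these genes, and the spread between libraries did. The sum of *Gsta1*, *Gm3776* and *Gm10639*, that of *Gstp1*, *Gstp2* and *Gstp-ps* and the second gene length were chosen after seeing the data. The first of these sums leaves out *Gsta2*, which also shares windows with *Gsta1*.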
